A study of Mus musculus with 6 samples.

Results

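The genes described here encode the proteins of the mitochondrial ribosome, and their members are all genes whose symbol begins with Mrpl or Mrps followed by a number, pseudogenes aside. The array's annotation names 78 such genes, 49 of the large subunit (Mrpl) and 29 of the small subunit (Mrps). Of these, 71 had a probe set that carried only their name and were measured, out of 22180 genes measured in all. The other 7 (Mrpl30, Mrpl33, Mrpl41, Mrpl43, Mrpl44, Mrpl53 and Mrps6) shared every probe set with another gene and have no value here. Mrps36 was too dim to be tested, which left 70 tested members, 43 of the large and 27 of the small subunit.

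They were measured in Ly6D-negative common lymphoid progenitors, bone marrow cells that can still become B, T or natural killer cells. The 3 control samples came from OcnCre-;iDTR+/- mice and the 3 mutant samples from OcnCre+;iDTR+/- mice, 6 to 8 weeks old. In the mutants Cre under the osteocalcin promoter switches on a diphtheria toxin receptor in osteocalcin-expressing bone cells, and mice of both groups received toxin daily for 4 weeks. How many of these bone cells were lost was not measured here. Each sample was hybridised to 1 Affymetrix array, values are on the log2 scale, and the labels do not say whether a sample was 1 mouse or a pool. The p-values therefore reflect the spread among these arrays, which may be technical.

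The mitochondrial ribosome makes the few proteins encoded in mitochondrial DNA, which are core subunits of the respiratory chain and of ATP synthase. All of its proteins are encoded in the nucleus, made in the cytosol and imported, and assembled on ribosomal RNA transcribed from mitochondrial DNA. Part of them descend from bacterial ribosomal proteins and part were added during the evolution of mitochondria. In bulk samples fewer cells of a type and less RNA per cell cannot be told apart, and 3 arrays per group limit the precision.

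Mutant replicate 2 stood apart before any comparison. Across tested genes, which are not independent replicates, it correlated with the other 5 arrays at 0.922 to 0.938, while those correlated with each other at 0.967 to 0.989. Bright genes were lower on part of the mutant arrays. In the brightest of 20 equal parts of the tested genes, the median distance from the control mean was 0.01 on mutant replicate 1, -0.45 on mutant replicate 2 and -0.17 on mutant replicate 3. Of the lymphoid progenitor markers 7 of 10 were measured and tested. All 7 were lower in the mutant means (median difference -0.20), against 57.5% of all tested genes. Set against the median difference of tested genes of like brightness, 4 were lower and 3 higher (median -0.04). Although the labels give the tissue as stromal, the stromal and bone markers Lepr, Pdgfra and Sp7 were under the brightness limit for testing. The other 8 tested markers of that list divided into 4 lower and 4 higher (median 0.02). The neutrophil and monocyte markers, 10 of 10 tested, had their highest median on control replicate 1 (0.39) and mutant replicate 1 (0.57), against -0.31 to 0.05 on the other arrays. Of 8 markers of committed B cells 5 were tested, with medians of -0.33, 0.19 and 0.11 in the controls and -0.28, -0.26 and -0.56 in the mutants. The 3 tested erythroid markers had medians of 0.32, -0.07 and -0.02 in the controls and 0.36, -0.16 and 0.49 in the mutants. The part of these cell types in the results below was not tested.

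The promoters of the members differed from those of all genes in features that the choice by name did not use. RefSeq (GRCm38.p6) promoter sequences, 250 bases before to 50 bases after each gene's start, were matched for 69 of the 78 members. Their median G and C content was 58.7%, against 52.7% over all 32851 promoters, and the median number of CG pairs was 21 against 7. Exact matches on either strand were sought for 4 short motifs. GCNTGCGC, part of the site of the mitochondrial gene activator NRF1, was present in 22 of 69 members (31.9%) and in 11.2% of the 27025 genes with a promoter in the table. Its stricter form GCATGCGC was also sought, and was present in 8 members (11.6%) and in 3.05% of genes. CCGGAAGT, an ETS site as bound by GABPA, was present in 12 members (17.4%) and in 4.31% of genes. AAGATGGCG, a site of YY1, was present in 8 members (11.6%) and in 1.64% of genes, and CACGTG, the E-box bound by MYC, in 5 members (7.25%) and in 8.09% of genes. Matches on opposite strands can overlap, as in Mrpl9, whose run of capitals holds the NRF1 letters on both strands. A match is only a description of the letters. The shares over all genes, here and for the paired starts below, were not matched for G and C content or for expression.

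The following stretches come first from members that hold the NRF1 letters and whose mutant values all lay below the control values (Mrpl9, Mrpl22, Mrpl49, Mrps7). Mrpl48 and Mrps9 have that pattern and also hold the NRF1 letters, but are not shown. Other members with that pattern, such as Mrpl21, Mrpl24 and Mrpl28, hold none of the motifs. Of the members shown without that pattern, Mrpl12 holds the NRF1 letters and Mrps22 the ETS letters. Each is the 100 bases before the start, 5′ to 3′ on the gene's strand, with motif matches in capitals. They lie at chr3:94443236-94443335 (plus strand, Mrpl9), chr11:58171564-58171663 (plus, Mrpl22), chr19:6057756-6057855 (minus, Mrpl49), chr11:115604040-115604139 (plus, Mrps7), chr11:120484537-120484636 (plus, Mrpl12) and chr9:98601680-98601779 (minus, Mrps22).
Mrpl9: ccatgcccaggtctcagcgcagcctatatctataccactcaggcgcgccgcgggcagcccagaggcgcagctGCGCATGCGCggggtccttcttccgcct
Mrpl22: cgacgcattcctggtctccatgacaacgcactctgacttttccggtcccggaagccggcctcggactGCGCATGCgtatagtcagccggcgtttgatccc
Mrpl49: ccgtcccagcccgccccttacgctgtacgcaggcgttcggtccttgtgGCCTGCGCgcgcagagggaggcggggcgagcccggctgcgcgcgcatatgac
Mrps7: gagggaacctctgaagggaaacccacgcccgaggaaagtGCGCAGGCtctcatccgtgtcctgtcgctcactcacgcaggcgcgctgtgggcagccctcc
Mrpl12: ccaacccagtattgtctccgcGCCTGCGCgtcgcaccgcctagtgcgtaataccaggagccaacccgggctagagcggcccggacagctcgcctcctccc
Mrps22: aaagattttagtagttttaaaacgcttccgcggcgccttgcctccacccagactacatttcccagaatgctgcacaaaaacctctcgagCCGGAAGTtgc

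The difference between mutant and control can be set beside these letters. Its median was -0.24 over 19 tested members with the NRF1 letters GCNTGCGC and -0.18 over 42 without them. For the stricter form GCATGCGC the order was reversed, with -0.13 over 7 members and -0.20 over 54 without. It was -0.27 over 10 members with the ETS letters and -0.15 over 51 without, and -0.16 over 8 with the YY1 letters and -0.21 over 53 without. For the E-box it was -0.11 over 5 and -0.24 over 56. These medians were not tested against each other.

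Many members also start back to back with another gene. Of the 69 members 23 (33.3%) had a gene on the other strand starting at most 500 bases upstream of their own start, against 10.9% of all genes. One such pair joins both subunits, since Mrpl46 and Mrps11 start 42 bases apart on chromosome 7. The bases between their starts, at chr7:78783090-78783130, are shown because both genes are measured here, and read on the strand of Mrps11 they hold none of the motifs.
Mrps11 and Mrpl46: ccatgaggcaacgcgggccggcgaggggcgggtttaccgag

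Mrps11, a protein of the small subunit platform, was at 7.52, 7.56 and 7.62 in controls and at 7.46, 7.43 and 7.40 in mutants, so its groups did not overlap. The difference was -0.13 ± 0.11 (SE, here and below), and it turned to 0.01 after repeated quantile normalization and after cyclic loess. Mrpl46, a protein of the central protuberance named here for this shared start, was at 7.84, 7.60 and 7.43 in controls and at 7.88, 7.33 and 7.56 in mutants. Its groups overlapped, with a difference of -0.03 ± 0.17, which turned to 0.10 after repeated quantile normalization and 0.12 after cyclic loess. Mrps12, a protein of the decoding centre, shares its start region with Sars2, the mitochondrial seryl-tRNA synthetase gene. Mrps12 was at 7.58, 7.64 and 7.59 in controls and at 7.70, 7.52 and 7.41 in mutants, while Sars2 differed by -0.01 ± 0.12. The difference of Mrps12 was -0.06 ± 0.12, turning to 0.08 after repeated quantile normalization and 0.09 after cyclic loess.

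As a group the members leaned to lower means in mutant progenitors, with most of the shift on 1 array, and no member passed the test with arrays weighted equally. In limma with Benjamini-Hochberg adjustment over 13308 genes, 0 of 70 members had an adjusted p under 0.05 (lowest 0.594), where the share over all tested genes was 0%. At an unadjusted p under 0.05 limma listed 1068 genes, and the unmoderated test, which also passed 0 genes, listed 879. Array weights estimated from the data were 0.36, 0.21 and 5.2 for mutant replicates 1, 2 and 3. The weighted mutant mean thus rested mainly on mutant replicate 3. With these weights 12 of 43 large and 7 of 27 small subunit members passed, beside 2960 of all 13308 tested genes. The mutant mean was the lower one for 35 of 43 large subunit members (median difference -0.18) and for 24 of 27 small subunit members (median -0.21). It was the lower one for 57.5% of all tested genes, whose median difference was -0.04. The counts were 29 of 43 and 18 of 27 after repeated quantile normalization and again after cyclic loess, and 40 and 25 with arrays centred on their medians. An unadjusted p under 0.05 was reached by 7 large and 3 small subunit members, all lower, against 6.02% of tested genes in that direction, and by 0 members in the higher direction, against 2.01% of genes.

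**Figure D1:**
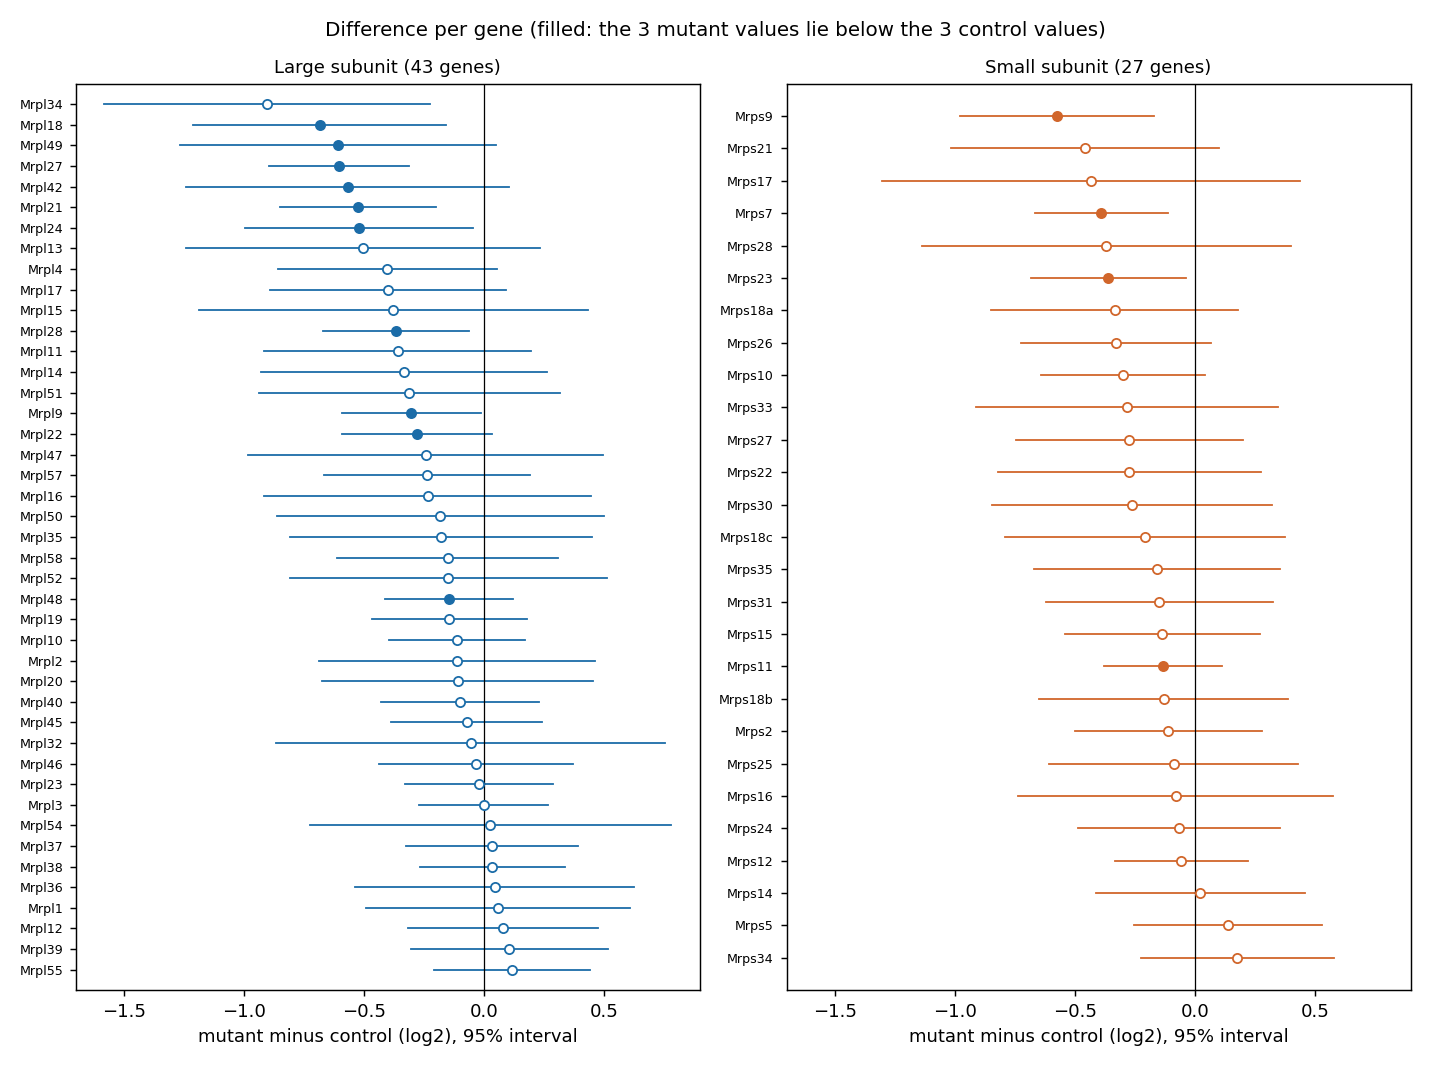
Difference between mutant and control mean (log2, horizontal) for each tested member, with limma's 95% confidence interval as a line; large subunit left, small subunit right. Filled points mark the 10 large and 4 small subunit members whose 3 mutant values lie below their 3 control values, and the interval includes 0 for 60 of the 70 members.

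The shift differed between the 3 mutant arrays. Measured from its control mean, the median large subunit member was at 0.14 on mutant replicate 1, at -0.62 on mutant replicate 2 and at -0.11 on mutant replicate 3, and the controls lay between -0.05 and 0.05. The median small subunit member was at 0.11, -0.60 and -0.10 on the same mutant arrays, with controls between -0.05 and 0.07. In these medians of the deposited values, mutant replicate 1 was therefore above and mutant replicate 2 far below the controls in both subunits. Mutant replicate 2 was the lowest of all 6 arrays for 36 of 43 large and 19 of 27 small subunit members, against 35.9% of tested genes. Mutant replicate 1 was above every control for 32 of 70 members, against 28.6% of genes, and mutant replicate 3 was below every control for 35 of 70, against 40.5% of genes. The median SD over members was 0.12 within controls and 0.39 within mutants, where all tested genes had 0.12 and 0.20.

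**Figure D2:**
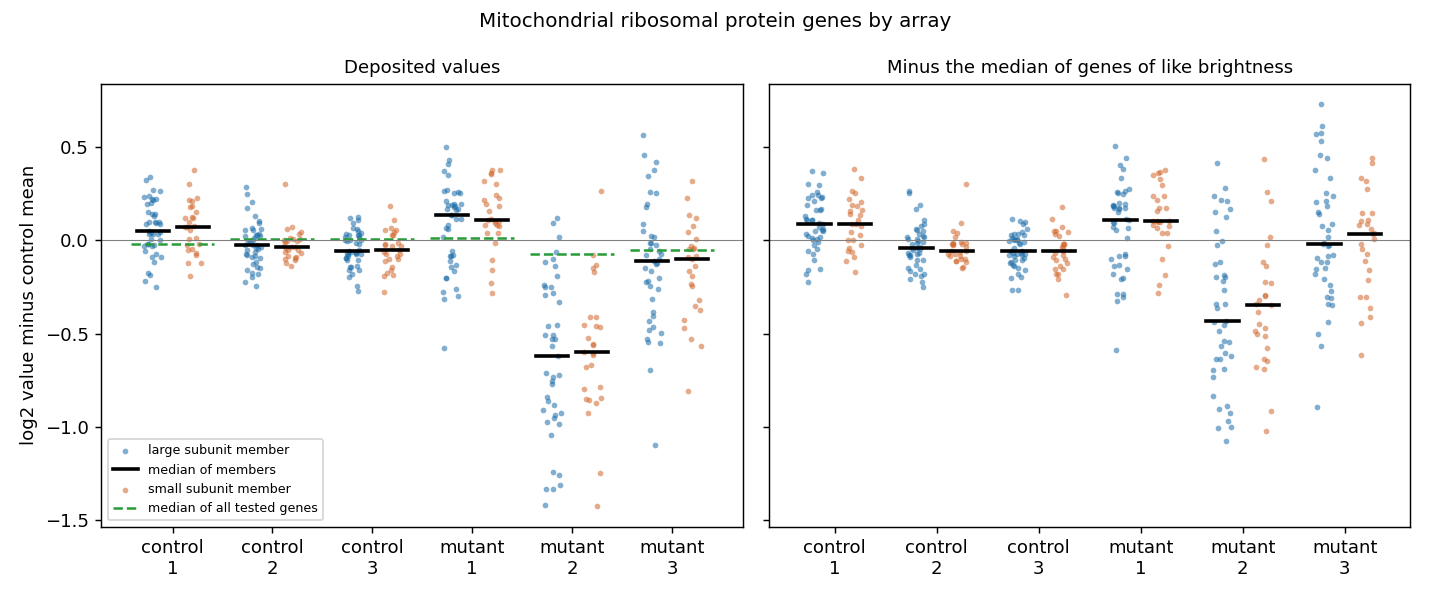
Log2 value minus the control mean (vertical) for each tested member on each of the 6 arrays, as deposited (left) and after subtracting the median of the tested genes of like brightness on that array (right). Points are members, black bars their medians and green dashed lines the median of all tested genes; on mutant replicate 2 the black bars lie at -0.62 and -0.60 on the left and at -0.43 and -0.35 on the right.

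The lower means depended on mutant replicate 2. Without it the large subunit median became -0.03, with 22 of 43 members lower, and the small subunit median became 0.06, with 11 of 27 lower. Of the 59 members whose mutant mean was lower, 26 then turned higher. Without mutant replicate 1 the medians were -0.35 and -0.37 instead, with 38 and 25 members lower, and still 0 members passed in limma.

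**Figure D3:**
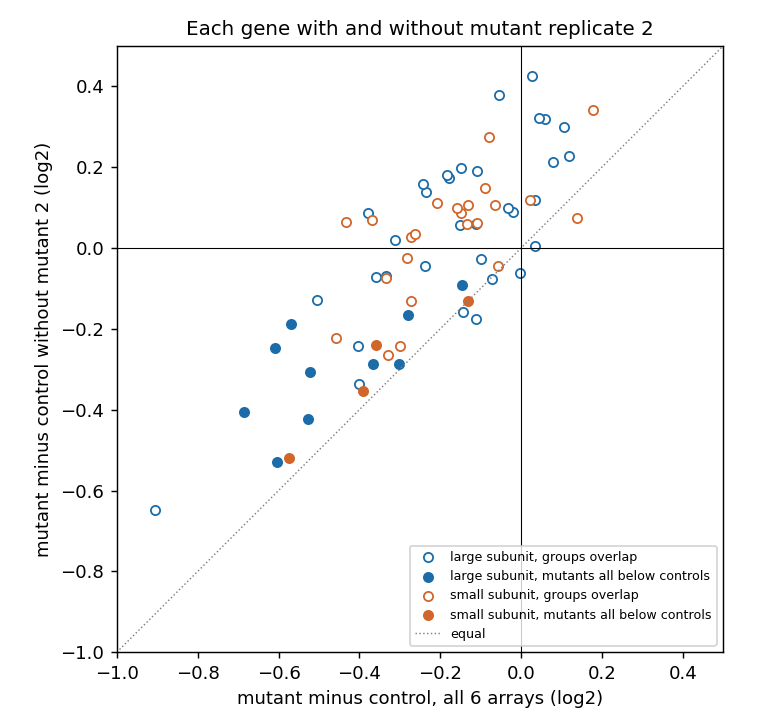
Difference between mutant and control mean of each tested member (log2) with all 6 arrays (horizontal) and without mutant replicate 2 (vertical); the dotted line marks equal values. Most points lie above the line, and the filled points, whose groups do not overlap, all stay below 0.

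Genes of like brightness shared part of the shift. Each member was set against the median difference of all tested genes in its twentieth by brightness, a median that ran from 0.09 in the dimmest to -0.21 in the brightest part. The median large subunit member was then at -0.09, with 25 of 43 members below 0, and the median small subunit member at -0.11, with 17 of 27 below 0. On single arrays the medians of the large subunit were 0.11, -0.43 and -0.02 in mutant replicates 1, 2 and 3, and those of the small subunit 0.10, -0.35 and 0.03. In control replicates 1, 2 and 3 they were 0.09, -0.04 and -0.06 for the large and 0.09, -0.06 and -0.06 for the small subunit. Mutant replicate 1 was thus close to control replicate 1, and mutant replicate 3 within the range of the controls. Without mutant replicate 2 the brightness-referenced median differences of the large and small subunit were 0.02 and 0.09. Without control replicate 1 the same medians were -0.02 and 0.00.

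**Figure D4:**
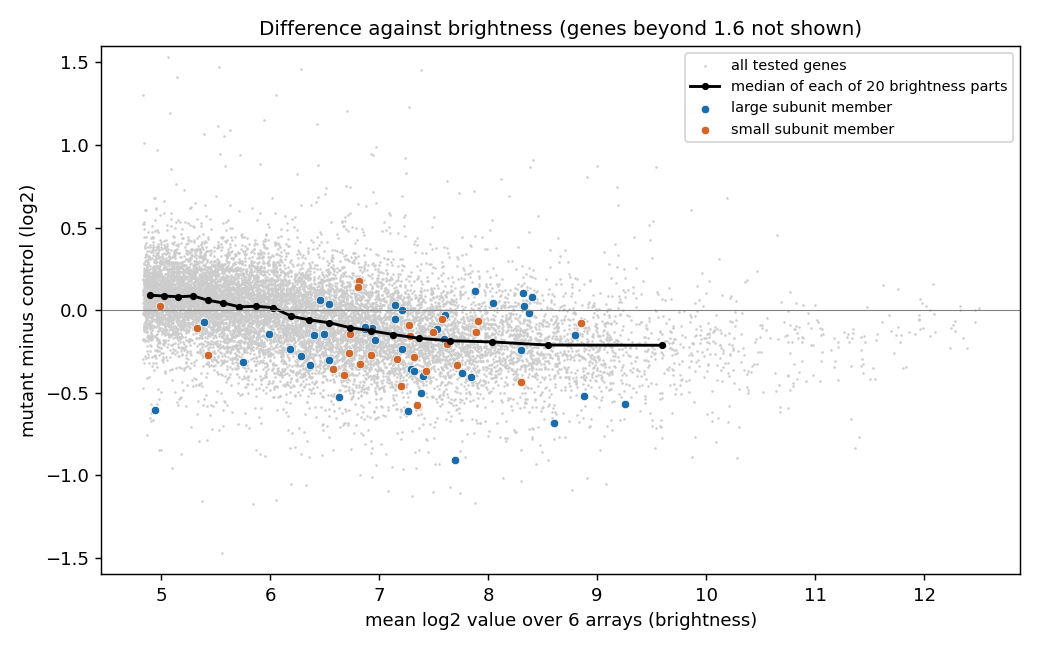
Difference between mutant and control mean (log2, vertical) against the mean log2 value over the 6 arrays (horizontal) for all tested genes (grey) and for the members (colours). The black line joins the medians of 20 brightness parts, which fall from 0.09 to -0.21, and 25 large and 17 small subunit members lie below the median of their part.

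A smaller set of members was lower on every mutant array, mutant replicate 1 included. The 3 mutant values lay below the 3 control values for 10 of 43 large and 4 of 27 small subunit members (23.3% and 14.8%), against 9.99% of tested genes, and above them for 0 members, against 5.4% of genes. Leaving mutant replicate 2 aside, the other 2 mutant arrays lay below every control for 15 of 70 members (21.4%), against 14% of genes. The shares of 9.99% and 14% cover all tested genes and are not matched for brightness. Of the 70 members 61 lay in brightness parts 11 to 20, where 60.3% to 86.8% of genes had a lower mutant mean. The 15 members were the same 14 and Mrpl10. All 14 kept a lower mean without mutant replicate 2, and 13 of them were also below genes of like brightness, the exception being Mrps11.

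Large subunit members led this set. Mrpl27, whose bacterial counterpart reaches the site of peptide bond formation, was at 5.13, 5.24 and 5.36 in controls and at 4.66, 4.49 and 4.76 in mutants. The difference was -0.60 ± 0.13 (adjusted p = 0.594 in limma, the value that every member without overlap had except Mrpl48 and Mrps11). This probe set is dim, since its mutant values lay under the brightness limit for testing (mean 4.84).
Mrpl21 was at 6.93, 6.96 and 6.80 in controls and at 6.60, 6.16 and 6.35 in mutants, a difference of -0.53 ± 0.14. It kept -0.42 without mutant replicate 2. Mrpl28 was at 7.49, 7.53 and 7.50 in controls and at 7.36, 6.98 and 7.07 in mutants (-0.37 ± 0.13). Its control values were tight, and mutant replicate 1 lay just under them.

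Members at the tunnel by which the new chain leaves the ribosome differed from each other. Mrpl24, at the tunnel exit, was at 9.11, 9.17 and 9.14 in controls and at 9.05, 8.19 and 8.61 in mutants (-0.52 ± 0.21, and -0.31 without mutant replicate 2). Mrpl22, which lines the tunnel, was at 6.51, 6.38 and 6.37 in controls and at 6.26, 5.91 and 6.26 in mutants (-0.28 ± 0.14, and -0.16 without mutant replicate 2). Mrpl45, which holds the tunnel exit against the inner membrane, was at 5.34, 5.68 and 5.27 in controls and at 5.35, 5.37 and 5.35 in mutants, and its groups overlapped (-0.07 ± 0.14, turning to 0.05 without control replicate 2). Mrpl23, also at the exit and chosen for mention after its values were seen, had a difference of only -0.02, which turned to 0.09 without mutant replicate 2.

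At the L1 stalk and the central protuberance, where transfer RNA is handled, members differed. Mrpl9, at the base of the L1 stalk, was at 6.52, 6.87 and 6.69 in controls and at 6.44, 6.36 and 6.38 in mutants (-0.30 ± 0.13). Mrpl1, the stalk protein itself, was at 6.65, 6.19 and 6.46 and at 6.61, 5.97 and 6.89, with overlapping groups (0.06 ± 0.24, turning to -0.00 with arrays centred on their medians).
Mrpl18, of the central protuberance, was at 8.86, 9.01 and 8.98 in controls and at 8.63, 7.71 and 8.45 in mutants. Its difference of -0.68 ± 0.23 was the largest among the 14, and it was -0.41 without mutant replicate 2. Mrpl48, of the same region, was at 6.16, 6.03 and 6.01 and at 5.98, 5.81 and 5.97 (-0.15 ± 0.12, adjusted p = 0.649 in limma), a small difference without overlap. Mrps11 had 0.650 in limma. Mrpl38, also there, differed by 0.03 ± 0.13, turning to -0.03 with centred arrays.

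In other parts of the large subunit, Mrpl42 and Mrpl49, proteins without a bacterial counterpart, did not overlap but rested mainly on mutant replicate 2. Mrpl42 was at 9.59, 9.46 and 9.57 in controls and at 9.41, 8.21 and 9.29 in mutants. Its difference went from -0.57 ± 0.29 to -0.19 without that array. Mrpl49 was at 7.39, 7.67 and 7.66 and at 7.29, 6.24 and 7.35, and its difference went from -0.61 ± 0.29 to -0.25.
Mrpl34, chosen for mention after its values were seen, had the largest difference of all members, -0.91 ± 0.29. It was at 7.90, 8.36 and 8.19 in controls and at 7.95, 6.73 and 7.06 in mutants, so mutant replicate 1 overlapped with control replicate 1. Without mutant replicate 2 the difference was -0.65.

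The small subunit members of the set lie in its head and platform or are specific to mitochondria. Mrps9, a head protein, was at 7.52, 7.57 and 7.82 in controls and at 7.41, 6.96 and 6.83 in mutants (-0.57 ± 0.17, and -0.52 without mutant replicate 2). Mrps7, also of the head, was at 6.75, 6.89 and 6.98 and at 6.59, 6.41 and 6.45 (-0.39 ± 0.12, and -0.35 without that array). Both kept most of their difference without that array. Mrps23, which has no bacterial counterpart, was at 6.68, 6.80 and 6.79 and at 6.60, 6.16 and 6.44 (-0.36 ± 0.14, and -0.24 without that array).

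For members of other functional sites the groups overlapped, and the differences lay within their errors or rested on mutant replicate 2. Of the stalk that recruits translation factors, Mrpl10 was at 6.85, 7.06 and 6.87 in controls and at 6.73, 6.95 and 6.78 in mutants (-0.11 ± 0.12), and Mrpl11 differed by -0.36 ± 0.24, or -0.07 without mutant replicate 2. Mrpl12, the stalk's repeated protein, was at 8.63, 8.19 and 8.27 and at 8.54, 8.18 and 8.62 (0.08 ± 0.17), turning to -0.05 when both of its probe sets were averaged. Mrpl3, near the site of peptide bond formation, had equal means of 7.21 ± 0.07 and 7.21 ± 0.12 (SD, n = 3 each). Its difference of -0.00 has a 95% interval from -0.27 to 0.27, and it turned to 0.13 after repeated quantile normalization. Mrpl58, which frees stalled ribosomes, differed by -0.15 ± 0.20.
In the small subunit, Mrps2 differed by -0.11 ± 0.17, Mrps16 by -0.08 ± 0.28 and Mrps22 by -0.27 ± 0.24, and each was above 0 without mutant replicate 2 (0.06, 0.27 and 0.03). Mrps24 (-0.06 ± 0.18), Mrps17 (-0.43 ± 0.38) and Mrpl52 (-0.15 ± 0.29), among the brightest probe sets of their subunits, did the same (0.11, 0.06 and 0.20). Mrps16, Mrps24 and Mrpl52 also lay above 0 after repeated quantile normalization (0.06, 0.08 and 0.01).

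The Mrps18 paralogs take different places, Mrps18a in the large subunit in spite of its name and Mrps18b and Mrps18c in the small subunit. Mrps18a was at 7.86, 7.87 and 7.91 in controls and at 7.98, 7.03 and 7.64 in mutants, Mrps18b at 8.03, 7.95 and 7.88 and at 8.31, 7.35 and 7.82, and Mrps18c at 7.85, 7.63 and 7.70 and at 7.83, 6.88 and 7.85. All had mutant replicate 2 as the lowest array and overlapping groups, with differences of -0.33 ± 0.22, -0.13 ± 0.22 and -0.21 ± 0.25. Without mutant replicate 2 that of Mrps18b turned to 0.11 and that of Mrps18c to 0.11, while Mrps18a was at -0.07. Mrps18b also turned to 0.02 after repeated quantile normalization. Mrps30, also found in the large subunit, differed by -0.26 ± 0.25, turning to 0.03 without mutant replicate 2. Counting Mrps18a and Mrps30 with the large subunit gave medians of -0.18 for the large and -0.16 for the small subunit. Mrps36, which works in the 2-oxoglutarate dehydrogenase complex, was not tested, with means of 4.45 ± 0.07 (SD, n = 3) for controls and 4.37 ± 0.13 for mutants.

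For 11 tested members the mutant mean was the higher one. In the large subunit the lowest p among them belonged to Mrpl55 (0.12 ± 0.14), Mrpl39 (0.11 ± 0.18) and Mrpl12, followed by Mrpl38, Mrpl1 and Mrpl37 (0.03 ± 0.15). In the small subunit they were Mrps34 (0.18 ± 0.17), Mrps5 (0.14 ± 0.17) and Mrps14 (0.02 ± 0.19). Mrps34 was at 6.94, 6.68 and 6.57 in controls and at 7.09, 6.58 and 7.05 in mutants, so these groups overlapped. The signs of Mrpl37 and Mrps14 turned with centred arrays (-0.03 and -0.04), and that of Mrps14 also after repeated quantile normalization (-0.04). Mrps5 turned to -0.19 with array weights, and Mrpl39 to -0.01 without mutant replicate 3.
Together with Mrpl23, the members not yet given with values were 19 of the large and 10 of the small subunit. Their differences ran from -0.51 to 0.04 (17 of 19 lower) and from -0.46 to -0.09 (10 of 10 lower), with a smallest unadjusted p of 0.0757 and 0.0785. Of 9 members with a second probe set, 5 had the same sign on both, and Mrpl10, Mrpl12, Mrpl36 and Mrps18c did not.

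The median difference was -0.24 over 45 tested members with a bacterial counterpart, 39 of them lower, and -0.15 over 25 specific ones, 20 of them lower. Against genes of like brightness both stood at -0.09, and without mutant replicate 2 they were at -0.04 and 0.03. Mutant values without overlap below the controls were found for 10 of the bacterial type (22.2%) and 4 of the specific members (16%). The share over all tested genes, not matched for brightness, was 9.99%, and the shares were not tested against each other.

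Other genes of mitochondrial translation, from lists of known factors, were compared in the same way, and 0 of them passed in limma. Over all tested genes the shares were 57.5% with a lower mutant mean and 6.02% lower at an unadjusted p under 0.05. These shares are not matched for brightness. A lower mutant mean was found for 27.5% of genes in the dimmest and 86.8% in the brightest of the 20 parts. Of 21 tested genes of mitochondrial ribosome assembly 16 (76.2%) were lower in the mutant mean (median -0.11, and -0.03 without mutant replicate 2). Against genes of like brightness 15 were lower. Only 1 of the 21 had an unadjusted p under 0.05, a share no higher than over all genes. Mtg2, a GTPase of large subunit assembly, differed by -0.39 ± 0.16, Gtpbp10, another such GTPase, by -0.28 ± 0.13, and Ngrn by -0.26 ± 0.15. Of 15 tested translation factors 14 (93.3%) were lower (median -0.19, and -0.08 without mutant replicate 2), and 2 of the 15 had an unadjusted p under 0.05. Against genes of like brightness 11 were lower.
Tufm, the elongation factor that brings transfer RNA to the ribosome, was at 7.79, 8.05 and 8.05 in controls and at 7.38, 7.63 and 7.15 in mutants. Its groups did not overlap, and the difference of -0.57 ± 0.16 was -0.70 without mutant replicate 2 (adjusted p = 0.594 in limma). Mtif3, an initiation factor, was at 6.01, 6.21 and 5.89 and at 5.64, 5.84 and 5.62, a difference of -0.33 ± 0.13, and -0.40 without that array. In both genes mutant replicate 2 was the highest mutant array, unlike in most members.

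Of 14 tested mitochondrial aminoacyl-tRNA synthetase genes, which charge transfer RNA, 11 (78.6%) were lower (median -0.14, and -0.10 without mutant replicate 2). Against genes of like brightness 10 were lower, and 2 of the 14 had an unadjusted p under 0.05. The histidyl enzyme gene Hars2 was at 5.92, 6.06 and 6.04 in controls and at 5.67, 5.47 and 5.49 in mutants (-0.46 ± 0.12), without overlap, and Nars2 differed by -0.52 ± 0.21, or -0.31 without mutant replicate 2. Of 13 tested genes listed for mitochondrial DNA transcription and replication 12 (92.3%) were lower (median -0.19, and -0.02 without mutant replicate 2). Against genes of like brightness 11 of the 13 were lower. The 12 include Prim2 (-0.12 ± 0.19), which belongs to the nuclear DNA primase. Tfb2m, a transcription factor of mitochondrial DNA, differed by -0.58 ± 0.29, Tfam, which packages this DNA, by -0.36 ± 0.18, and Polg, its polymerase, by -0.19 ± 0.11, with 0 of 13 at an unadjusted p under 0.05. Without mutant replicate 2 the difference of Tfb2m was -0.23 and that of Tfam -0.18. Dap3, Gadd45gip1 and Ptcd3, ribosomal proteins under other names, differed by -0.16 ± 0.15, 0.03 ± 0.14 and -0.10 ± 0.14.

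Among known regulators of these genes, 4 of 8 were lower in the mutant mean (median 0.01), and 0 had an unadjusted p under 0.05. Nrf1 differed by -0.04 ± 0.12, Gabpa by -0.25 ± 0.15, Gabpb1 by -0.08 ± 0.11 and Yy1 by -0.18 ± 0.13. Myc was at 8.62, 8.17 and 8.12 in controls and at 8.76, 8.30 and 8.45 in mutants (0.20 ± 0.18). Pprc1 (0.18 ± 0.18), Ppargc1b (0.09 ± 0.15) and Esrra (0.05 ± 0.15), coactivators and a receptor of mitochondrial gene expression, were above 0.

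Nuclear genes of the respiratory chain and ATP synthase and the cytosolic ribosomal protein genes can be set beside the members. The core subunits that the mitochondrial ribosome makes are encoded in mitochondrial DNA and are not in these lists. Of 74 tested respiratory chain and ATP synthase genes 69 were lower in the mutant mean (median -0.27, -0.10 against genes of like brightness and -0.06 without mutant replicate 2). Of 59 tested cytosolic ribosomal protein genes 51 were lower, with medians of -0.21, -0.09 and -0.04. Their medians on mutant replicate 2 were -0.68 and -0.50, beside -0.62 and -0.60 for the mitochondrial ribosome. The differences between these lists were not tested.

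**Figure D5:**
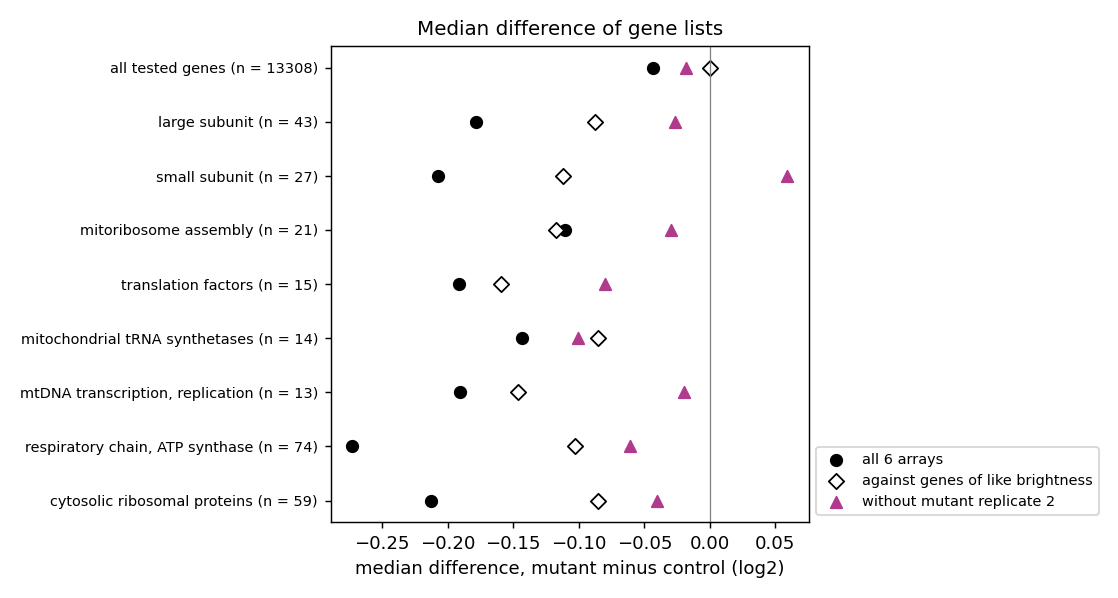
Median difference between mutant and control mean (log2, horizontal) over the tested genes of each list: with all 6 arrays (circles), against genes of like brightness (diamonds) and without mutant replicate 2 (triangles). The large and small subunit move from -0.18 and -0.21 with all arrays to -0.03 and 0.06 without mutant replicate 2.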

How the data were processed

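All 6 arrays were analysed. The deposited values are log2 intensities per probe set, made by the authors with RMA (background correction, quantile normalization and probe summary), per the submitters' processing notes. No RMA version, annotation version or build is given in the sources used here. RNA was amplified before labelling, per the labels' protocols. No detection calls were used, so low values cannot be told from background.

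Of 41345 probe sets, 23521 carried 1 gene symbol, 1814 several and 16010 none. Each of 22180 genes was represented by its brightest single-symbol probe set. The dimmest 40% of genes (mean under 4.84) were not tested, leaving 13308. Groups, taken from the labels, were compared in limma 3.58.1 (R 4.3.3). The fit used lmFit with eBayes, and p-values were adjusted by Benjamini-Hochberg over all tested genes, with a threshold of 0.05. The script was tested on simulated data. Errors are limma's SE unless given as SD. Lists are described by counts and medians only. Brightness references are medians over 20 equal parts of the tested genes.

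The members, lists and tests were chosen with earlier results of these data known. Members were named where groups did not overlap, where the mutant mean was higher (lowest p first), for a known role or as the brightest of a subunit. From each pathway list the genes of lowest p were named, and all regulators. Mrpl23, Mrpl34 and Mrpl46 lie outside this rule. Alternatives were other filters, averaged probe sets, other variance priors, array weights, the unmoderated test, 3 normalizations, the replicate block, each array left out, other brightness parts and another subunit assignment.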

Additional observations from a re-analysis of the deposited data

How the results depend on the processing

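Limma's array weights were 0.36, 0.21 and 5.2 for mutant replicates 1, 2 and 3, so the mutant mean rested mainly on replicate 3. With these weights 12 of 43 large and 7 of 27 small subunit members passed the threshold, beside 2960 of all 13308 tested genes. With equal weights 0 passed. Under array weights the small subunit median against genes of like brightness turned to 0.062. The cause was not tested. Leaving out each array in turn moved the large subunit median over -0.35 to -0.026 and the small subunit median over -0.37 to 0.059. Against genes of like brightness the ranges were -0.18 to 0.017 and -0.21 to 0.092. The count of lower members ran from 22 to 38 and from 11 to 25, and genes past the threshold from 0 to 4 (4 without mutant replicate 1, 1 without mutant replicate 2), with 0 members among them. Without a filter, with a stricter one, with other variance priors and with 10 or 50 brightness parts, the subunit medians and counts kept their direction and 0 members passed. After repeated quantile normalization the medians were -0.11 and -0.16, after cyclic loess -0.10 and -0.15, and with centred arrays -0.24 and -0.27, while the median of all genes went from -0.04 to -0.01, -0.01 and -0.11. With the replicate block 0 members passed and the medians stayed at -0.18 and -0.21. Deviations of same-numbered arrays correlated at 0.13, 0.20 and -0.13 across genes. Control replicate 1 and mutant replicate 1 correlated at 0.987, the highest value of either with any array. The labels do not say whether the numbers mark pairs, and so few arrays per group cannot decide it. The main fit did not pair them. Some members changed sign, and the cause was not tested. With probe sets averaged this was Mrpl12 at -0.049. With array weights these were Mrpl37 at -0.080, Mrpl38 at -0.10, Mrpl46 at 0.0057, Mrpl52 at 0.033, Mrpl58 at 0.014, Mrps16 at 0.24, Mrps18c at 0.11, Mrps2 at 0.018, Mrps24 at 0.16 and Mrps5 at -0.19. After repeated quantile normalization they were Mrpl3 at 0.13, Mrpl46 at 0.10, Mrpl52 at 0.0067, Mrps11 at 0.0057, Mrps12 at 0.082, Mrps14 at -0.044, Mrps16 at 0.065, Mrps18b at 0.019 and Mrps24 at 0.079, and after cyclic loess Mrpl3 at 0.12, Mrpl46 at 0.12, Mrpl52 at 0.036, Mrps11 at 0.0096, Mrps12 at 0.090, Mrps14 at -0.059, Mrps16 at 0.10, Mrps18b at 0.032 and Mrps24 at 0.098. With centred arrays they were Mrpl1 at -0.0021, Mrpl37 at -0.029, Mrpl38 at -0.028 and Mrps14 at -0.039. Leaving out single arrays gave sign changes for Mrpl1 (-0.14 to 0.32), Mrpl12 (-0.0096 to 0.21), Mrpl3 (-0.063 to 0.054), Mrpl37 (-0.13 to 0.12), Mrpl38 (-0.038 to 0.12), Mrpl39 (-0.014 to 0.30), Mrpl45 (-0.15 to 0.053), Mrpl46 (-0.18 to 0.098), Mrpl52 (-0.41 to 0.20), Mrpl58 (-0.30 to 0.056), Mrps12 (-0.14 to 0.012), Mrps14 (-0.12 to 0.21), Mrps16 (-0.28 to 0.27), Mrps17 (-0.76 to 0.063), Mrps18b (-0.37 to 0.11), Mrps18c (-0.37 to 0.11), Mrps2 (-0.22 to 0.061), Mrps22 (-0.45 to 0.026), Mrps24 (-0.16 to 0.11) and Mrps30 (-0.47 to 0.035).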
